A study of Mus musculus with 21 samples.

Results

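Trem2, Tyrobp, Syk, Plcg2, Inpp5d, Spi1, Csf1r, Csf1 and Il34 encode the microglial receptor pair TREM2 and TYROBP, the enzymes that act below it, the growth factor receptor CSF1R with its ligands, and the transcription factor PU.1. These 9 genes were taken by symbol from a count table of 64361 genes, and all 9 were found in it. They were followed in whole-tissue RNA of GA-Camk2a and control mice, from cortex and from hippocampus. GA-Camk2a mice carry a floxed-stop transgene for poly-GA, a dipeptide repeat protein made from the C9orf72 repeat of ALS and frontotemporal dementia, fused to GFP. Camk2a-Cre switches it on in excitatory neurons, so microglia do not carry the active transgene by design. The mice were kept on a C57BL/6J background, came from a pair of litters and were 30 to 40 weeks old per the labels. The study's text gives the younger of these ages and places the humane endpoint of GA-Camk2a mice near it. The labels call the other group control without naming its alleles, so whether those mice carried the silent transgene or Cre alone is not given for these libraries. For stained mice of the same line, the study names the controls as Camk2a. RNA was read with prime-seq, a method that sequences the 3' ends of polyadenylated transcripts from barcoded libraries. The cortex gave 5 control and 6 GA-Camk2a libraries, and the hippocampus gave 4 control and 6 GA-Camk2a libraries. The study's text gives the numbers of control mice the other way round between the tissues, and the labels were followed here. The 21 libraries came from 11 mice, 10 of which gave both tissues, so the tissues are not independent of each other.

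TREM2 is a surface receptor of microglia that binds lipids and lipoproteins and has no signalling tail of its own. It pairs with the adapter TYROBP (DAP12), whose ITAM motif recruits the kinase SYK, and SYK activates PLCG2, the phospholipase that releases calcium, while the phosphatase SHIP1 (Inpp5d) removes the lipid on which part of this signalling depends. CSF1R is the receptor tyrosine kinase that keeps microglia alive, and it answers to CSF1, made by glia and other cells, and to IL-34, made in the forebrain mainly by neurons. PU.1, encoded by Spi1, is the lineage factor of myeloid cells and drives the genes of both receptors.

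The libraries held 1048201 to 5888102 counts. Levels are given as CPM, counts per 1000000 counts of the library. In the smallest library 1 count was worth close to 1 CPM, so Syk, Plcg2, Inpp5d and Spi1 were measured from few counts: Syk had 0 to 10 counts in a library and Inpp5d 8 to 42. The labels give 2 batches, each holding both genotypes in each tissue, and batch was a term in every test. The GFP row, which would report the transgene, held 0 to 4 counts in the cortex libraries and 0 to 1 in the hippocampus libraries, control libraries among them, so it does not check the genotype labels. The hippocampus library of GA-Camk2a mouse 41 stood apart: its summed CPM was 5554 over 5 blood genes and 855 over 7 monocyte and neutrophil genes, while the other 5 GA-Camk2a hippocampus libraries held at most 1704 and 25.7. In cortex 3 of 4 blood genes tested were called higher, against 6.35% of all genes. Their list summed to 648 to 939 CPM in controls and 710 to 2214 in GA-Camk2a mice. In hippocampus 0 of 4 were called with edgeR, with log2 fold changes of 1.02 to 1.22 and an unadjusted p under 0.05 for all 4. The part of blood RNA in the results on the 9 genes was not tested. The hippocampus tests of the called genes, and those relative to microglial markers, are therefore also given without it.

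The tissues held microglial RNA in every library. The summed CPM of 8 pan-microglia markers, among them Aif1, C1qa, C1qb, C1qc and Itgam, was 362 to 420 in control cortex and 1032 to 1584 in GA-Camk2a cortex, and 295 to 377 in control hippocampus and 669 to 1122 in GA-Camk2a hippocampus. No marker of this list was at 0 in any group. In each tissue 7 of the 8 passed the test as higher, as did 6.35% of all genes tested in cortex and 4.97% in hippocampus. Itgam did not, with a log2 fold change of 0.59 in cortex and 0.28 in hippocampus (adjusted p = 0.247 and 0.474). In bulk RNA, more cells of a type and more RNA per cell cannot be told apart, and this holds for every value below.

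Trem2, Tyrobp, Csf1r, Csf1 and Spi1 were higher in GA-Camk2a mice in both tissues, Inpp5d was higher and the ligand Il34 lower in the hippocampus, and Syk and Plcg2 were not called. A gene is called where its adjusted p, from edgeR with Benjamini-Hochberg adjustment over all genes tested, is under 0.05. In the cortex 5 of the 7 genes that passed the filter on low counts were called higher, against 6.35% of the 13058 genes tested, and 0 were called lower. In the hippocampus 6 of 8 were called higher, against 4.97% of 14884 genes, and 1 was called lower, against 5.97%. The filter counts libraries of both genotypes, so a gene can pass through the group where it is higher. Spi1 in cortex and Plcg2 in hippocampus passed only with the help of GA-Camk2a libraries. The 7 and 8 genes therefore depend in part on the genotype effect, and the same can hold for the lists below. The median log2 fold change was 1.14 over the 7 genes in the cortex and 0.95 over the 8 in the hippocampus. Over all genes tested the median was -0.01 in the cortex and 0.02 in the hippocampus. Every GA-Camk2a library lay above every control for 5 genes in the cortex and 6 in the hippocampus, a pattern that 3.50% and 5.60% of all genes tested showed. For Il34 every GA-Camk2a hippocampus library lay below every control, as for 4.02% of all genes there. In the cortex 0 of the 9 genes had every GA-Camk2a library below every control, as 2.67% of all genes did.

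**Figure D1:**
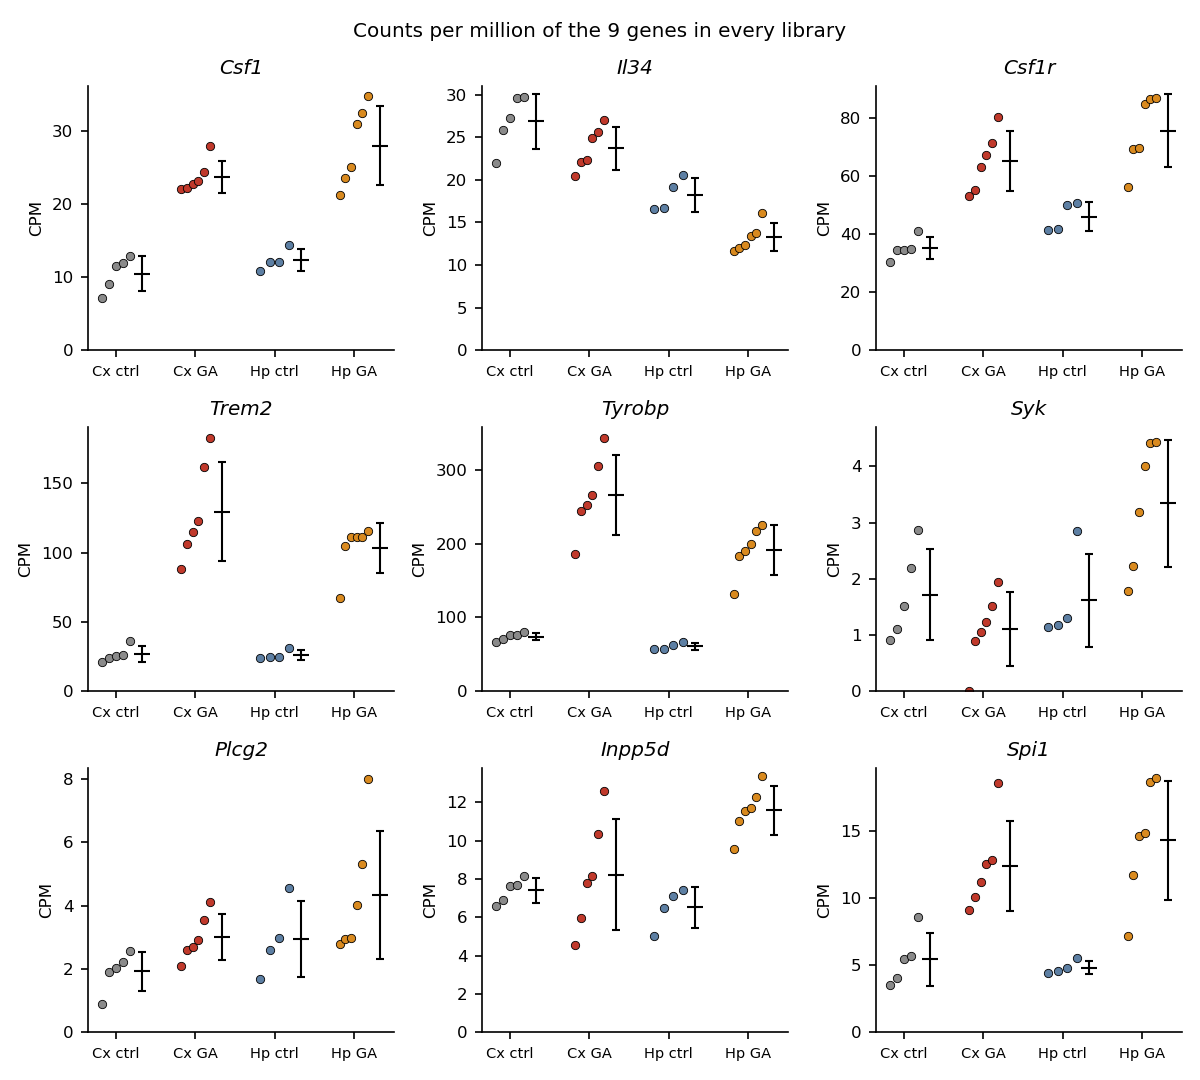
CPM of the 9 genes in each library (points) with the group mean ± SD (bars), for cortex control (Cx ctrl, n = 5), cortex GA-Camk2a (Cx GA, n = 6), hippocampus control (Hp ctrl, n = 4) and hippocampus GA-Camk2a (Hp GA, n = 6). Trem2, Tyrobp, Csf1r, Csf1 and Spi1 separate by genotype in both tissues, Inpp5d and Il34 in the hippocampus, and Syk and Plcg2 overlap in both.

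Csf1, the ligand of CSF1R that activated glia release, rose in both tissues. In cortex its CPM was 11.4, 9.08, 12.8, 7.09 and 11.9 in the control libraries, and ran from 22.1 over a median of 22.9 to 27.9 in the GA-Camk2a libraries. The groups did not overlap, and the GA-Camk2a libraries lay close together. The log2 fold change was 1.14 ± 0.17 (SE, adjusted p = 6.58e-05), or 2.20-fold. In hippocampus the control libraries held 12.02, 12.06, 10.83 and 14.36 CPM and the GA-Camk2a libraries 21.2 to 34.7 with a median of 27.9, again without overlap. Csf1 was higher there by 1.10 ± 0.17 (adjusted p = 6.23e-04), and by 1.04 without mouse 41. With batch 1 alone the hippocampus value was 0.88 and was not called (adjusted p = 0.172).

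Il34, the neuronal ligand of the same receptor, did not rise in either tissue. In cortex it stood at 21.9, 27.2, 29.7, 25.8 and 29.6 CPM in the controls and at 20.4 to 27.0 with a median of 23.6 in GA-Camk2a mice. These groups overlapped, and the log2 fold change was -0.20 ± 0.13 (adjusted p = 0.371). In hippocampus the control libraries held 19.2, 16.6, 16.5 and 20.5 CPM and the GA-Camk2a libraries 11.7 to 16.2 with a median of 12.9. Every GA-Camk2a library lay below every control, by a gap smaller than 1 CPM. Il34 fell there by 0.52 ± 0.14 on the log2 scale (adjusted p = 0.0255), and by 0.51 without mouse 41 (adjusted p = 0.0492). This call is weak: it was lost without control mouse 11, 20 or 37, without GA-Camk2a mouse 16, and with DESeq2 (adjusted p = 0.0883). Markers of excitatory neurons moved the same way: 4 of 6 fell in the hippocampus, among them Camk2a at -1.15 and Neurod6 at -1.97, and 5 of 6 in the cortex. Of all genes 5.97% were called lower in the hippocampus and 6.17% in the cortex. The part of these neurons in the fall of Il34 was not tested.

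The balance of the ligands separated the genotypes in both tissues. The ratio of Csf1 to Il34 counts within a library needs no normalization, and only its change between libraries is read here. It was 0.393 ± 0.0946 (SD, n = 5) in control cortex, from 0.275 to 0.522, and 1.00 ± 0.0828 (SD, n = 6) in the GA-Camk2a mice, from 0.887 to 1.09. In hippocampus it was 0.677 ± 0.0438 (SD, n = 4) in controls, from 0.627 to 0.724, and 2.16 ± 0.62 (SD, n = 6) in GA-Camk2a mice, from 1.55 to 2.89. The lowest GA-Camk2a library lay above the highest control each time. This ratio was looked at after the values of both genes had been seen, so it is given without a test.

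Csf1r, the receptor of both ligands, rose in both tissues as well, and its fold change was smaller than that of Csf1, a difference that was not tested. Its CPM was 30.53, 34.52, 41.04, 34.93 and 34.63 in control cortex, and 53.0 to 80.5 with a median of 65.2 in GA-Camk2a cortex. In hippocampus it was 50.7, 41.8, 50.1 and 41.5 in controls and 56.1 to 86.9 with a median of 77.2 in GA-Camk2a mice. Both tissues separated by genotype. The log2 fold change was 0.88 ± 0.12 in cortex (adjusted p = 3.10e-05) and 0.67 ± 0.12 in hippocampus (adjusted p = 0.00182), or 1.84-fold and 1.59-fold, and 0.65 in hippocampus without mouse 41. The hippocampus call was lost when all libraries were thinned to the depth of the smallest (0.55, adjusted p = 0.0987) and with batch 1 alone (0.58, adjusted p = 0.243). The cortex call was lost with batch 2 alone (0.77, adjusted p = 0.0680). Csf1r shares its 3' end with Hmgxb3 on the other strand. Hmgxb3 had 321 counts over all libraries against 2755 for Csf1r, and a log2 fold change of 0.14 in hippocampus (adjusted p = 0.768).

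Trem2 had the largest log2 fold change of the 9 genes in both tissues. Its CPM was 36.3, 25.4, 24.2, 21.3 and 26.3 in control cortex, and 88.0 to 182 with a median of 119 in GA-Camk2a cortex. The lowest GA-Camk2a library, mouse 35, still held more than 2 times the highest control. In hippocampus the controls held 31.2, 23.9, 25.1 and 24.6 CPM and the GA-Camk2a libraries 67.2 to 115 with a median of 111. There 5 GA-Camk2a libraries lay between 105 and 115, and mouse 30 stood below them. Trem2 was higher by 2.31 ± 0.18 in cortex (adjusted p = 9.70e-09) and by 1.93 ± 0.15 in hippocampus (adjusted p = 4.48e-06), or 4.97-fold and 3.81-fold. Without mouse 41 the hippocampus value was 1.91, and within the batches it was 1.72 and 2.14. The cortex values within the batches were 2.20 and 2.52, all of them called.

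Tyrobp, the adapter that TREM2 and several other receptors need, followed with the next largest change. Control cortex held 80.1, 70.8, 67.4, 75.9 and 76.5 CPM, and GA-Camk2a cortex 185 to 343 with a median of 258. In hippocampus the controls held 62.7, 57.1, 57.0 and 66.6 CPM and the GA-Camk2a libraries 132 to 225 with a median of 195. Controls lay close together and no group touched the other. The log2 fold change was 1.85 ± 0.13 in cortex (adjusted p = 2.90e-09) and 1.60 ± 0.13 in hippocampus (adjusted p = 5.02e-06), with 1.56 in hippocampus without mouse 41. Mouse 30 again gave the lowest GA-Camk2a hippocampus value, as it did for Spi1, Csf1r, Csf1, Inpp5d and Syk.

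The enzymes below the receptor were scarce in these libraries, and their data are the weakest. Syk had 92 counts in all 21 libraries together. Its CPM was 0.908 to 2.86 in control cortex and 0 to 1.95 in GA-Camk2a cortex, and 1.14 to 2.85 in control hippocampus and 1.79 to 4.44 in GA-Camk2a hippocampus. The groups overlapped in both tissues and Syk did not pass the filter in either. With no filter its log2 fold change was -0.61 ± 0.57 in cortex and 1.04 ± 0.43 in hippocampus (adjusted p = 0.690 and 0.261). Plcg2, with 154 counts in all, passed in hippocampus only and stood there at 0.64 ± 0.35 (adjusted p = 0.283), from 1.70 to 4.56 CPM in controls and 2.79 to 7.98 in GA-Camk2a mice. Without mouse 41 it did not pass the filter. In cortex it held 0.908 to 2.56 CPM in controls and 2.10 to 4.13 in GA-Camk2a mice, which overlap. What size of difference this depth could show for these genes was not tested.

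Inpp5d, which encodes the inhibitory phosphatase SHIP1, was called in the hippocampus and not in the cortex. Control cortex held 7.63, 8.17, 7.69, 6.58 and 6.93 CPM, and GA-Camk2a cortex 4.56 to 12.6 with a median of 7.98. The control values lay inside the range of the GA-Camk2a values. The cortex log2 fold change was 0.15 ± 0.24 (adjusted p = 0.757). In hippocampus the controls held 6.50, 7.13, 7.41 and 5.02 CPM and the GA-Camk2a libraries 9.56 to 13.3 with a median of 11.6, without overlap. Inpp5d was higher there by 0.80 ± 0.18 (adjusted p = 0.00826), and by 0.79 without mouse 41. The call was lost with no filter (adjusted p = 0.0718), with thinned counts (adjusted p = 0.0812) and within either batch, with values between 0.69 and 0.89.

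Spi1, the gene of PU.1, rose in both tissues. Its CPM was 5.72, 5.45, 4.03, 3.54 and 8.59 in control cortex and 9.09 to 18.6 with a median of 11.9 in GA-Camk2a cortex. The groups came close, with control mouse 38 at 8.59 and GA-Camk2a mouse 34 at 9.09. In hippocampus the controls held 5.52, 4.42, 4.56 and 4.79 CPM and the GA-Camk2a libraries 7.17 to 18.95 with a median of 14.8. The log2 fold change was 1.14 ± 0.26 in cortex (adjusted p = 0.00537) and 1.5 ± 0.26 in hippocampus (adjusted p = 0.00154), with 1.43 without mouse 41. Within the batches the cortex value was 0.98 and 1.57 and was called in neither (adjusted p = 0.0755 and 0.0901). In hippocampus it was 1.19 with batch 1 alone, which was not called (adjusted p = 0.223), and 1.82 with batch 2 alone, which was.

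**Figure D2:**
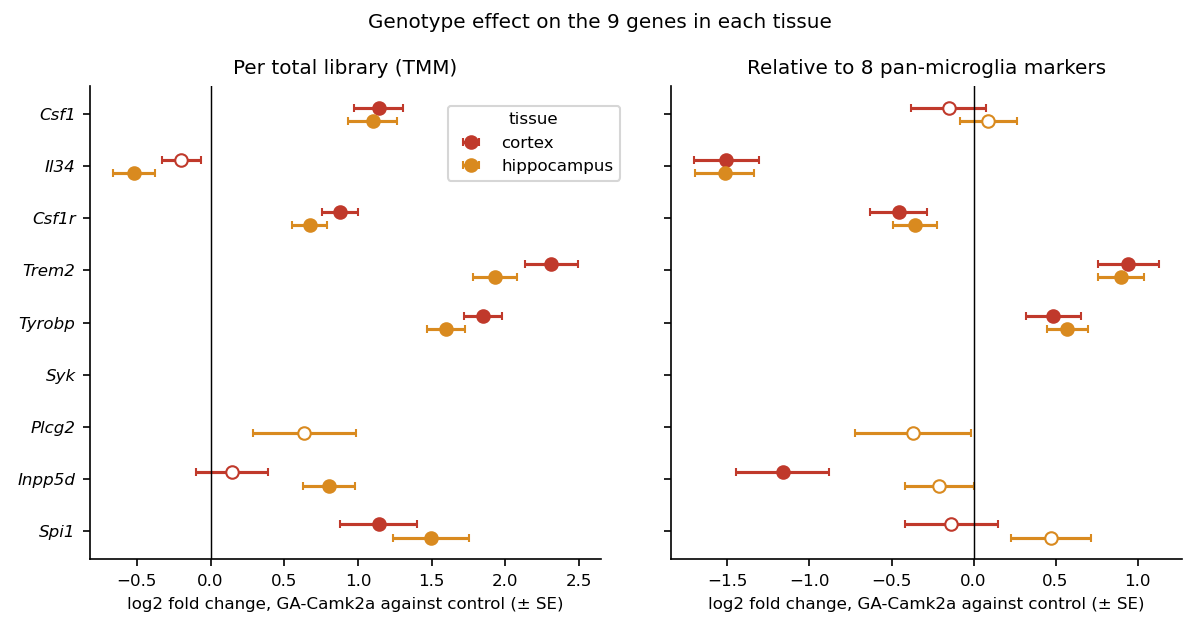
Log2 fold change ± SE of GA-Camk2a against control mice from edgeR, for each of the 9 genes in cortex and hippocampus, scaled to the whole library (left) and to 8 pan-microglia markers (right). Filled points have an adjusted p under 0.05, and genes under the filter have no point. Trem2 lies furthest to the right in both panels and Il34 furthest to the left.

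PU.1 binds a purine-rich core, GAGGAA, and the stretches before the start sites of Trem2, Inpp5d and Csf1 are shown because these genes were called while only some of the stretches hold that core. RefSeq's promoter table (GRCm38.p6) held 5 of the 9 genes, with 6 start sites. The 250 bases before each start were searched on both strands, as GAGGAA or its reverse complement TTCCTC, which are in capitals below.
Trem2, chr17:48346151-48346400, plus strand: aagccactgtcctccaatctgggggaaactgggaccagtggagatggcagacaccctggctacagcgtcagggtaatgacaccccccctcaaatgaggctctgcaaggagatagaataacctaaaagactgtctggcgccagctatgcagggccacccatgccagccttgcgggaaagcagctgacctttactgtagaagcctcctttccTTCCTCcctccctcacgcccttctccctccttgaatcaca
Inpp5d, chr1:87620062-87620311, plus strand: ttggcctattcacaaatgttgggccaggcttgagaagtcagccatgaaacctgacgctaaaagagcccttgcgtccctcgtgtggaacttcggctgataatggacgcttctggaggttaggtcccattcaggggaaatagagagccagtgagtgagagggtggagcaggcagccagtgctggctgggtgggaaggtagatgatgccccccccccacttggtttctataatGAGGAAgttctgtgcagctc
Csf1, chr3:107760470-107760719, minus strand: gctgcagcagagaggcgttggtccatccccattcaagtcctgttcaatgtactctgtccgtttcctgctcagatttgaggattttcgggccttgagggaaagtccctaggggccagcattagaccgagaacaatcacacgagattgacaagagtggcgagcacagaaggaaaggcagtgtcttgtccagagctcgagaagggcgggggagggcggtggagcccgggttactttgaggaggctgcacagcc
Trem2 had 1 match, which began at position -40 from the start site and read TTCCTC, that is GAGGAA on the other strand. Inpp5d had 1 match at position -20 on its own strand. Csf1 and Plcg2 had none, and of the start sites of Syk 1 of 2 had a match. Of all 32851 promoters, 23.3% held the core, against 3 of the 6 here, 1 of them a start site of Syk. The core was in 5 of 6 promoters of the pan-microglia list. It was in 2 of 9 promoters of the homeostatic microglia list used below. Such a short match is a description and not a binding site.

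Since the microglial markers were higher as well, each gene was also compared on a scale set by them, where the size of a library is taken from the geometric mean of the 8 pan-microglia markers. On this scale 97.2% of all genes in the cortex and 88.8% in the hippocampus were lower in GA-Camk2a mice, so a lower value covers genes that rose by less than the markers, did not change or fell. Only 0.398% of all genes in the cortex and 0.591% in the hippocampus were higher. Trem2 and Tyrobp were among the higher ones in both tissues, 2 of 7 genes tested in the cortex and 2 of 8 in the hippocampus. Higher values were common in like lists, given here for cortex and hippocampus. They were 3 of 7 and 4 of 8 other ITAM receptors and adapters, and 4 of 8 and 3 of 8 of the pan-microglia markers themselves. Of the Trem2-dependent microglial genes read below, they were 3 of 8 and 4 of 9. Trem2 stood above the markers by 0.94 ± 0.18 in cortex (adjusted p = 1.70e-06) and by 0.90 ± 0.14 in hippocampus (adjusted p = 1.04e-05). For Tyrobp the values were 0.49 ± 0.17 (adjusted p = 0.00509) and 0.57 ± 0.12 (adjusted p = 3.41e-04). Without mouse 41 the hippocampus values were 0.92 for Trem2 and 0.58 for Tyrobp, both called.

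Csf1 and Spi1 were not called on this scale. Csf1 stood at -0.15 ± 0.23 in cortex and 0.09 ± 0.17 in hippocampus (adjusted p = 0.514 and 0.621), and Spi1 at -0.14 ± 0.29 and 0.47 ± 0.24 (adjusted p = 0.639 and 0.0714). In hippocampus Spi1 was called higher without GA-Camk2a mouse 23 or 30, with an adjusted p down to 0.0226. The genes called lower relative to the markers were Csf1r, Inpp5d and Il34 in the cortex, and Csf1r and Il34 in the hippocampus. Csf1r stood at -0.46 ± 0.18 in cortex and -0.36 ± 0.14 in hippocampus (adjusted p = 0.0112 and 0.0195). The hippocampus call of Csf1r was lost without mouse 41 (-0.33, adjusted p = 0.0629), and also without control mouse 11 or 31 or GA-Camk2a mouse 16 or 35. Inpp5d stood at -1.16 ± 0.28 in cortex (adjusted p = 9.47e-05) and at -0.21 ± 0.21 in hippocampus (adjusted p = 0.344). Il34, at -1.51 ± 0.20 and -1.52 ± 0.18, lay below the medians over all genes, which were -1.31 and -0.99. Without mouse 41 the hippocampus values of the other genes were 0.086 for Csf1, 0.46 for Spi1, -0.17 for Inpp5d and -1.45 for Il34, with no call changed.

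The choice of markers changed several of these calls. Against 10 homeostatic markers, which rose less than the pan-microglia list, Csf1r was higher by 0.39 in cortex (adjusted p = 0.0148) and at 0.36 in hippocampus (adjusted p = 0.0862). Csf1 was called higher by 0.66 and 0.80 (adjusted p = 0.00405 and 0.00775) and Spi1 by 0.66 and 1.19 (adjusted p = 0.0303 and 0.00296). Inpp5d, called lower in cortex against the pan-microglia list, stood at -0.34 and was not called (adjusted p = 0.224). Trem2 was above this list too, by 1.81 and 1.63, and Tyrobp by 1.35 and 1.28. In the homeostatic list 6 of 10 genes were called higher in cortex and 2 of 10 in hippocampus, or 1 of 10 without mouse 41. Of all genes 6.35% and 4.97% were called higher. P2ry12, a receptor of resting microglia, stood at 0.07 and -0.16 (adjusted p = 0.802 and 0.570).

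**Figure D3:**
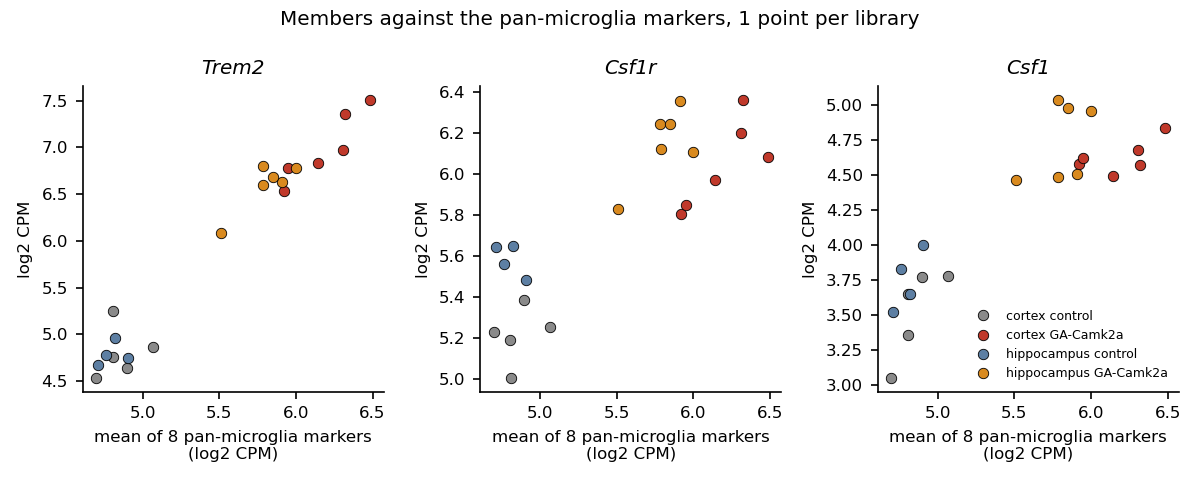
Log2 CPM of Trem2, Csf1r and Csf1 (vertical axes) against the mean log2 CPM of the 8 pan-microglia markers (horizontal axes), with 1 point for each of the 21 libraries, coloured by tissue and genotype. Trem2 climbs steeply with the markers, while Csf1r and Csf1 rise over a narrower range of levels.

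Ratios within a library reuse the counts tested above, so they are a description without a test and no separate support. Trem2 over Csf1r counts was 0.776 ± 0.242 (SD, n = 5) in control cortex and 1.97 ± 0.382 (SD, n = 6) in GA-Camk2a cortex, and 0.570 ± 0.0501 (SD, n = 4) and 1.37 ± 0.184 (SD, n = 6) in the hippocampus groups. The genotypes did not overlap in either tissue, with the highest control cortex library at 1.19 and the lowest GA-Camk2a cortex library at 1.66. Trem2 over Tyrobp moved far less, from 0.359 ± 0.0616 to 0.483 ± 0.0471 in cortex (SD, n = 5 and 6) and from 0.432 ± 0.0528 to 0.543 ± 0.0511 in hippocampus (SD, n = 4 and 6), with overlap in both. Inpp5d over Csf1r was 0.213 ± 0.029 in control cortex and 0.127 ± 0.0416 in GA-Camk2a cortex (SD, n = 5 and 6), with the lowest control at 0.188 and the highest GA-Camk2a library at 0.187, so that the groups all but touched. In hippocampus this ratio was 0.142 ± 0.0223 and 0.155 ± 0.0207 (SD, n = 4 and 6), with overlap. Spi1 over Csf1r ran from 0.0982 to 0.248 in control and from 0.142 to 0.242 in GA-Camk2a cortex, which overlap. In hippocampus it ran from 0.0909 to 0.115 and from 0.128 to 0.272.

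**Figure D4:**
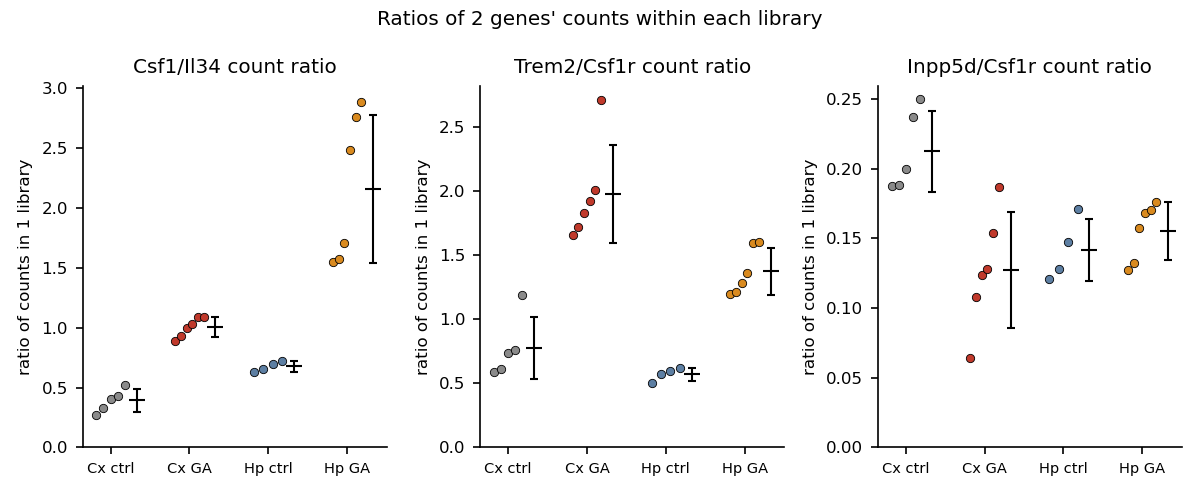
Ratio of the counts of 2 genes within each library (points, with the group mean ± SD) for Csf1 over Il34, Trem2 over Csf1r and Inpp5d over Csf1r in the 4 groups. The first and second ratios separate by genotype in both tissues, and Inpp5d over Csf1r is lower in GA-Camk2a cortex, with controls at 0.188 or more and GA-Camk2a libraries at 0.187 or less.

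Whether the genotype effect differed between the tissues was tested as an interaction over all 21 libraries. 0 of the 7 genes tested were called, against 0.400% of all genes in either direction, and Inpp5d alone had an unadjusted p under 0.05. The difference, hippocampus minus cortex, was 0.64 ± 0.29 for Inpp5d (adjusted p = 0.439). It was -0.40 ± 0.25 for Trem2, -0.27 ± 0.19 for Tyrobp, -0.23 ± 0.17 for Csf1r, -0.06 ± 0.23 for Csf1, 0.32 ± 0.39 for Spi1 and -0.33 ± 0.17 for Il34, with adjusted p-values from 0.558 to 0.970. With the replicate block, which compares the tissues within a mouse, no gene of the 9 was called either. Without mouse 41 the differences ran from -0.38 for Trem2 to 0.67 for Inpp5d, and none was called (adjusted p from 0.460 to 0.964). So the hippocampus-only calls of Inpp5d and Il34 are not shown to be particular to that tissue.

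In control mice the tissues differed in the ligand Il34. Its CPM was 16.5 to 20.5 in hippocampus and 21.9 to 29.7 in cortex. The log2 fold change was -0.60 ± 0.14 (adjusted p = 0.00661), or -0.59 with the replicate block (adjusted p = 0.0275). The call was lost with thinned counts (-0.49, adjusted p = 0.113). Of the 7 genes tested 1 was called lower, against 7.60% of all genes, and 0 higher, against 8.69%. With so few genes, these counts do not set the 9 genes apart from all genes. Tyrobp stood at -0.32 ± 0.11 and Csf1r at 0.32 ± 0.12 (adjusted p = 0.0546 and 0.0774). Both crossed the threshold without the cortex library of control mouse 31. Trem2 stood at -0.01 ± 0.16 (adjusted p = 0.978), with means of 26.7 ± 5.68 CPM in cortex and 26.2 ± 3.35 CPM in hippocampus (SD, n = 5 and 4).

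Of 15 other receptors and adapters listed for signalling through an ITAM, 7 passed the filter in cortex and 8 in hippocampus, and 6 were called higher in each, against 6.35% and 4.97% of all genes, with a median log2 fold change of 1.75 and 1.62. Fcer1g, the adapter of Fc receptors, was higher by 1.85 in cortex and 1.45 in hippocampus, the Fc receptor Fcgr3 by 1.86 and 1.68, and the integrin chain Itgb2, in the hippocampus, by 1.56. Clec7a, the β-glucan receptor Dectin-1, which signals to SYK directly, had the largest fitted change of this list, 3.77 in cortex and 2.84 in hippocampus. Its level in controls is not given here, and a fold over a scarce gene would be imprecise. The relatives of Trem2 (Trem1, Trem3, Treml1, Treml2 and Treml4) are in this list and none of them passed the filter in either tissue.

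Of 21 listed kinases, adapters and effectors below SYK, 12 passed the filter in cortex and 14 in hippocampus, and 3 were called higher in each, against 6.35% and 4.97% of all genes. In cortex these were Vav1 at 1.36, the small GTPase Rac2 at 0.97 and the kinase Lyn at 0.85. In hippocampus they were Rac2 at 1.62, the PI3-kinase adapter Pik3ap1 at 1.83 and Pik3cg at 1.49. The list medians were 0.09 and 0.39. Among 12 inhibitory receptors and phosphatases, the relatives of SHIP1 in function, Ptpn6 (SHP-1) was higher by 1.78 in cortex and 1.77 in hippocampus and Cd33 by 1.68 in hippocampus. These were the only calls among 5 and 6 genes tested, against 6.35% and 4.97% of all genes called higher.

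Of 9 genes for TREM2 ligands, sheddases and MS4A regulators, 3 of 5 tested were called in cortex and 3 of 6 in hippocampus, all higher and the same ligands each time, against 6.35% and 4.97% of all genes called higher. Without mouse 41, 4 of 6 were called in hippocampus. The apolipoprotein Apoe stood at 1.02 and 0.94, the chaperone Clu at 1.00 and 0.97, and the galectin Lgals3 at 2.48 and 1.80. Astrocytes also make Apoe and Clu, and their marker Gfap was higher by 2.27 and 2.32, with 4 of 6 astrocyte markers called in cortex and 5 of 6 in hippocampus. The summed CPM of the 6 astrocyte markers ran from 1570 to 1978 in control cortex and from 2616 to 3795 in GA-Camk2a cortex, and its part in these values was not tested.

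Of 16 other growth factors, receptors and downstream genes around CSF1R, 10 passed the filter in cortex and 12 in hippocampus. In cortex 1 was called higher, against 6.35% of all genes, and 1 lower, against 6.17%. In hippocampus 2 were called higher, against 4.97% of all genes, and 2 lower, against 5.97%. The kinase Mapk3 (ERK1) was higher by 0.40 in cortex. In hippocampus Csf2ra and Pik3r1 were higher, by 0.51 and 0.36, and Kit fell by 0.46, a call that was lost without mouse 41. The list medians were -0.07 and 0.10. Of 14 proliferation genes only 3 and 5 passed the filter and 0 were called with edgeR.

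Among the transcription factors that work with PU.1, Irf8 was higher by 1.68 in cortex and 1.49 in hippocampus. Cebpa was called in cortex at 1.07, and Ikzf1 and Runx1 in hippocampus at 1.34 and 1.43. In all 3 of 9 tested were called higher in cortex and 4 of 11 in hippocampus, or 3 of 10 without mouse 41, where Runx1 was not among them. Of all genes 6.35% and 4.97% were called higher. Mef2c, which neurons express strongly, was the one factor that fell, by 0.69 in cortex, and stood at 0.27 in hippocampus. This difference between the tissues was 0.93 ± 0.18 (adjusted p = 0.0168).

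Genes of disease-associated microglia (DAM), a state whose later stage requires Trem2, are read against the 6.35% of all genes called higher in cortex and 4.97% in hippocampus. Of 6 genes of the first stage, 6 were higher in cortex and 5 in hippocampus, with B2m at 1.93 and 1.38, Lyz2 at 2.11 and 2.25 and Ctsd at 1.28 and 0.94. Of the Trem2-dependent second stage, 7 of 8 tested were higher in cortex and 8 of 9 in hippocampus. The lists share genes, so their counts are not separate. Clec7a is in this stage and the ITAM list, Apoe in the first stage and the TREM2 ligands, and Itgam in the ITAM and pan-microglia lists. Cst7 stood at 3.87 and 3.47, Ccl6 at 2.65 and 2.63 and Cd9 at 1.40 and 1.27, and Itgax, which passed the filter in hippocampus only, at 3.25. Without mouse 41 the hippocampus counts were 5 of 6 and 8 of 9. Macrophages of the brain's borders share part of this program. Their markers Mrc1 and Pf4 were called in hippocampus, 2 of 3 tested, and Pf4 in cortex, 1 of 1. The summed CPM of the 7 border macrophage markers was 9.89 to 19.1 in control and 21.9 to 33.1 in GA-Camk2a cortex, and 12.3 to 17.2 in control and 21.5 to 121 in GA-Camk2a hippocampus, where the value of 121 is that of mouse 41 and the other 5 libraries held at most 45.5. No marker of theirs was at 0 in a whole group, and their part in the rise of the 9 genes was not tested.

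**Figure D5:**
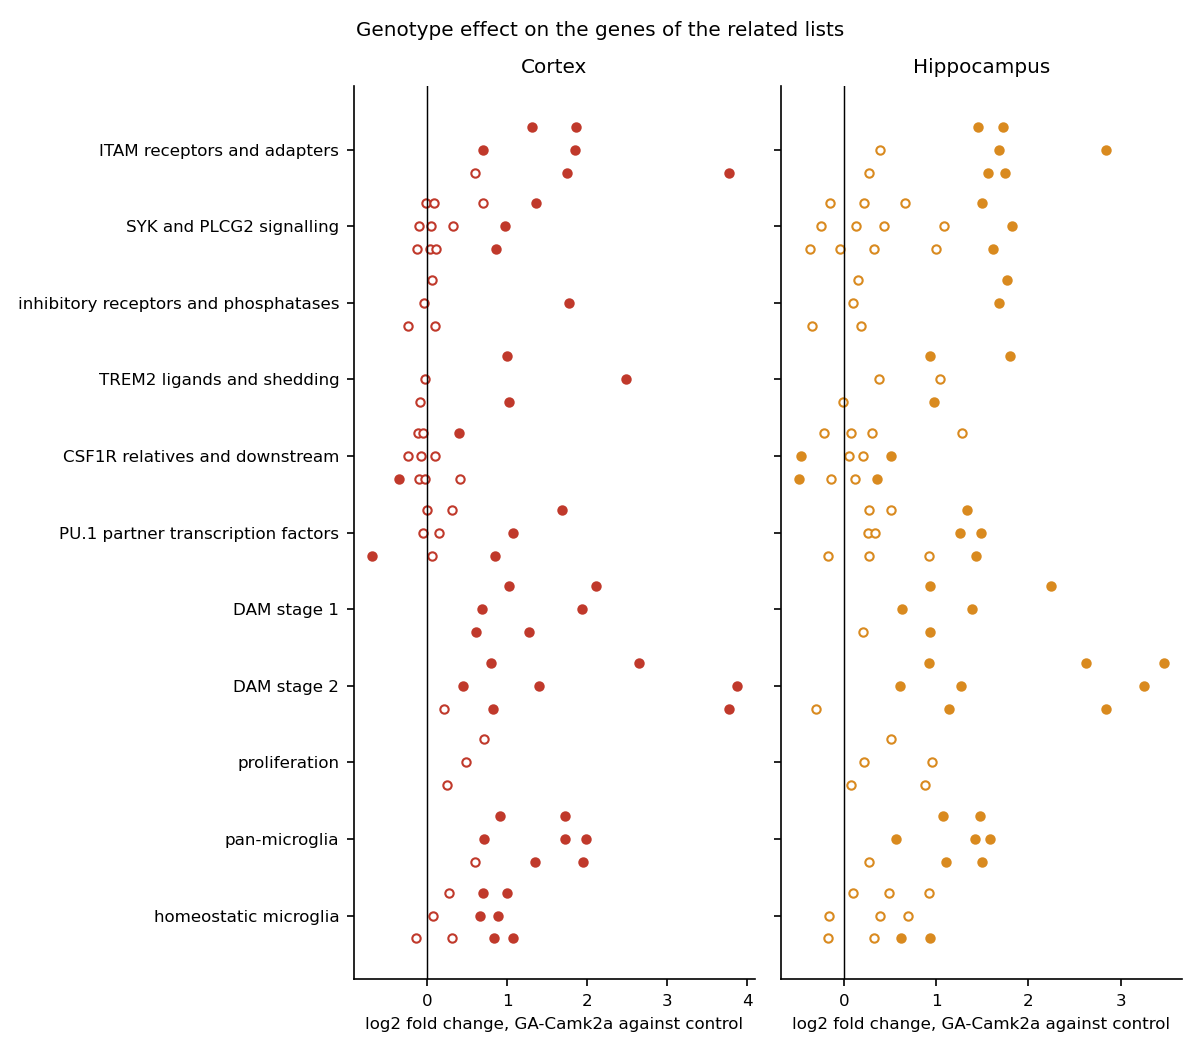
Log2 fold change of GA-Camk2a against control mice for each tested gene of the related lists, in cortex (left) and hippocampus (right), with filled points for genes whose adjusted p was under 0.05. Called DAM, ITAM receptor and pan-microglia genes lie to the right, up to 3.87 for Cst7 in cortex, while the genes around CSF1R have medians of -0.07 in cortex and 0.10 in hippocampus, with open points up to 1.28.

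Across the 21 libraries and 11833 genes with a mean of at least 3 log2 CPM, the genes most like each receptor and ligand were found by Pearson correlation of log2 CPM, as a description. Trem2 was followed most closely by Ctss (r = 0.987), C1qc (0.983), C1qb (0.977), H2-D1 (0.976) and Lyz2 (0.974), and after the 4 group means were subtracted these still had r of 0.671 to 0.832. For Csf1r the nearest genes were Slc14a1 (0.936), Irf8, Gfap, C4b and Clu, and for Csf1 they were Gfap (0.945), Necap2, Cd9, Cd63 and H2-K1, of which Gfap is an astrocyte gene. Their r dropped to 0.451 to 0.679 for Csf1r and 0.472 to 0.711 for Csf1 once the group means were subtracted. For Il34 the nearest genes were Arf5 (0.941), Stx1a, Tubb3, Ttc9b and Golga7b, with Stx1a and Tubb3 being neuronal genes. After the group means were subtracted the r of this last set was only 0.194 to 0.380, so it rests mostly on differences between the groups. The points share libraries and depth.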

How the data were processed

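Bulk RNA of 21 libraries from mouse cortex and hippocampus was measured with prime-seq. The authors demultiplexed the reads, counted them with zUMIs on GRCm39 (mm39 per the labels) and deposited whole-number counts per gene, not normalized. The submitters' processing notes also name FastQC 0.11.8, cutadapt 1.12, STAR and DESeq2 1.44. Whether UMIs or reads were counted, the annotation release, and the use of introns and strand are not given in the sources used here. Counts of genes that overlap others on the opposite strand (Csf1r with Hmgxb3, Il34 with Gm15894 and Gm15895, Plcg2 with Gm27361) are therefore uncertain, and if reads were counted, counting error understates technical error. Gm15894 and Gm15895 held 15 and 9 counts in all libraries against 1016 for Il34.

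Groups, mouse numbers and batches came from the labels. Symbols came from GENCODE vM21, which matched 43308 of 64361 genes, and its build (GRCm38) was used for names and promoters only. The GFP row was left out of library totals. CPM is the count divided by the library total and multiplied by 1000000. Tests used edgeR 4.0.16 in R 4.3.3: TMM, filterByExpr at a minimum of 10 counts, quasi-likelihood F-tests with batch as a term, and Benjamini-Hochberg adjustment over all genes tested. The authors used DESeq2 and state no covariates. DESeq2 1.42.0 with batch was run as an alternative, beside RLE and upper quartile scaling, no batch term, no filter, thinned counts, each batch alone, a mouse block and leaving out each library. SEs are the log2 fold change over the root of F. Log2 CPM used a prior count of 2. The fits were also run on simulated counts, and no result of that is shown here. For the marker-scaled tests the simulated markers were left unchanged, unlike in the data, so the simulation does not check that scale.

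The 9 genes and all lists were chosen with earlier results of these data known. From each list, the genes named are the 3 with the lowest adjusted p in each tissue and any that fell, except for some genes whose values are not reported here. Counts and sums over a list include these genes. The mouse number links libraries of the same animal across tissues. Residuals of a mouse's pair of libraries correlated between -0.23 and 0.29, and the block stands for the shared animal. Libraries are separate mice, and no count column was unused.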

Additional observations from a re-analysis of the deposited data

Results flagged for a closer look

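Values far from the rest of their group were looked for in 60 sets (9 genes and 6 ratios in 4 groups) with Dixon's test, which flags about 1 in 20 sets by chance, and 5 were found. Trem2 in hippocampus of GA-Camk2a mouse 30 was low, at 67.2 CPM, where the other 5 libraries held 105 to 115, and without it the log2 fold change of Trem2 in hippocampus was 2.04. Trem2 in hippocampus of control mouse 11 was high within its narrow group, at 31.2 CPM. Syk in hippocampus of control mouse 31 stood at 2.85 CPM, from 5 counts. The ratio of Trem2 to Csf1r counts was high in cortex of control mouse 11, at 1.19, and in cortex of GA-Camk2a mouse 16, at 2.71.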

How the results depend on the processing

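Of the tests of the 9 genes with 1 library left out, 491 kept direction and side of the threshold, 9 lost the call, 4 gained it and 12 changed sign. With the other alternatives 210 kept both, 18 lost the call, 2 gained it and 11 changed sign. Trem2 and Tyrobp kept their calls in both tissues under every alternative that was run. In cortex the 5 calls fell to 3 with batch 2 alone, and in hippocampus the 6 calls fell to 2 with batch 1 alone. These fits hold fewer libraries. The call of Il34 in hippocampus was lost (0 genes lower) with DESeq2, with no filter, with thinned counts and within batch 1 or batch 2 (adjusted p up to 0.401), and leaving out 1 library gave 0 to 1 genes lower (adjusted p up to 0.0941, lost without control 11, 20 or 37 or GA-Camk2a 16). In control mice thinned counts left 0 genes lower in hippocampus, and leaving out 1 library gave 0 to 1 higher and 1 to 2 lower, the upper values without cortex control 31. Against the homeostatic list 5 genes were higher and 1 lower in cortex and 4 higher and 1 lower in hippocampus. Against the pan-microglia list, leaving out 1 hippocampus library gave 2 to 3 higher, the third being Spi1 without GA-Camk2a 23 or 30, and 1 to 2 lower, the call of Csf1r being lost without control 11 or 31 or GA-Camk2a 16, 35 or 41.

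Signs changed as follows. Inpp5d in cortex was -0.013 with batch 1 alone. Against the homeostatic list the signs turned for Spi1 (0.66), Csf1r (0.39) and Csf1 (0.66) in cortex and for Plcg2 (0.30), Inpp5d (0.52) and Csf1r (0.36) in hippocampus, since that list rose less, and the cortex call of Csf1r turned from lower to higher. The difference between tissues turned for Spi1 with thinned counts (-0.068) and ranged with 1 library left out from -0.050 to 0.54 for Spi1 and from -0.12 to 0.058 for Csf1. In control mice Trem2 was 0.013 with no filter and 0.0069 with thinned counts and ranged from -0.085 to 0.077 with 1 library left out, and Spi1 ranged from -0.41 to 0.087. Spi1 in cortex against the pan-microglia list ranged from -0.29 to 0.16. The cause of the other sign changes was not tested.

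With the mouse as a replicate block, Spi1 in control mice turned to 0.021 and the calls did not change: the tissue difference was -0.39 for Trem2 and 0.65 for Inpp5d, and 70 genes were called in place of 59.

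Over all genes, the calls in cortex fell from 1635 to 1005 with thinned counts, 876 and 230 within the batches and 1038 without control 31. In hippocampus they fell from 1628 to 927, 115, 681 and 1038 in the same order, and to 1082 without control 20. The tissue difference gave 59 calls, 127 with DESeq2, 159 with no filter, 13 with thinned counts, 36 with no batch term and 22 to 39 in the lowest leave-one-out fits. The control comparison gave 2351, or 1391 with thinned counts. Against the marker lists the calls fell from 12743 to 8092 in cortex and from 13302 to 2986 in hippocampus with the homeostatic list. Syk, Plcg2, Inpp5d and Spi1 were measured from the fewest counts of the 9 genes.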
